A study of Mus musculus with 13 samples.

Results

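DNA transposons are the repeat class whose transcripts the study set as the background of IAPEz, an endogenous retrovirus (ERV) of the mouse, when it measured reactivation in embryonic stem (ES) cells. The members described here are the DNA-class subfamilies of the deposited repeat table with at least 50 counts summed over its 4 libraries. These were 115 of the 218 DNA subfamilies listed, in a table of 1553 rows. Members were thus chosen by their summed counts alone, and those levels are given as a description. By name they fell into 47 MER, 23 Charlie, 22 Tigger, 2 URR and 21 other subfamilies.

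A DNA transposon moves by excision and reinsertion of its own DNA, carried out by a transposase, and makes no RNA copy of itself. The copies in the mouse genome are old and immobile, and most are short remnants that lost the transposase gene and lie in introns or between genes, so their sequence enters RNA mainly as a part of transcripts that start elsewhere. Charlie elements, the URR elements of rodents, RCHARR1 and many short MER elements (MER3, MER5A, MER20, MER58A) belong to the hAT superfamily, whereas Tigger elements, MER2 and the MER44 group belong to the Tc1-mariner superfamily. MER is only a naming series and covers several lineages.

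RNA was sequenced from 4 kinds of ES cells grown in serum and leukemia inhibitory factor on gelatin. WT was the untreated AinV15 line, which accepts a cassette under a promoter that doxycycline switches on. Dnmt1-/- was an untreated line of the D1-null strain (C allele), which lacks Dnmt1, the maintenance DNA methyltransferase. The 2 remaining populations were AinV15 cells that carried the cassette for dCas9-OGA, a bacterial enzyme that removes O-GlcNAc from proteins fused to inactive Cas9, or for dCas9-OGA D242A, in which OGA is catalytically inactive, each together with 4 guide RNAs to IAP elements. These 2 populations, grown under drug selection for the cassette and treated with doxycycline to induce the fusion protein, are called OGA and D242A from here on. In every comparison of OGA or D242A with WT, the fusion protein therefore cannot be told apart from the guides, the selection and the doxycycline. Where Dnmt1-/- is compared with WT, the loss of Dnmt1 cannot be told apart from other differences between the D1-null and AinV15 lines. The submitters name a different aligner for the OGA and D242A samples than for the replicates of WT and Dnmt1-/-, and its part in the ratios to WT was not tested. The repeat table holds 1 library per condition, and its WT and Dnmt1-/- columns are not tied to any of the 3 replicate libraries of those cells. No difference between its libraries therefore has a replicate check, no p-value is given, and every 95% interval is an exact interval (Clopper-Pearson for ratios and shares, Poisson for levels) that covers counting error only.

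The counts on genes came to 25097983 in WT, 18693531 in Dnmt1-/-, 24955180 in OGA and 24828078 in D242A, and repeat counts are given per 1000000 gene counts (cpm). Dnmt1 stood at 62.9 cpm in Dnmt1-/- and between 376 and 546 cpm in the other libraries. All 5 ES cell markers (Pou5f1, Sox2, Nanog, Zfp42 and Esrrb) stood at 186 cpm or above in every library. The WT library stood apart in MERVL-int, an ERV of the 2-cell state, with 1261 cpm against 112 to 153 cpm elsewhere, and in 4 markers of that state, which summed to 12.8 cpm against 0.281 to 0.967 cpm. The 3 primitive endoderm markers (Gata4, Gata6 and Sox17) summed to 27.0 cpm in WT and 8.29 to 14.5 cpm elsewhere. The WT condition and this library cannot be told apart in the comparisons with WT, and in bulk RNA fewer cells of a type cannot be told apart from less RNA per cell.

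The 115 members held 63416 counts, 97.2% of all DNA-class counts, and none of them was at 0 in any library. The counts were unevenly spread, since 7 members held 50% of them, the 12 largest held 64.4%, and the median member had 142 counts over all 4 libraries. The remaining 103 DNA subfamilies held 1840 counts in all, and 12 of them had none. Just inside the minimum lay MER106B with 51 counts, Charlie23a with 53 and Charlie15a with 54, and just outside it lay MER121 and Charlie22a with 49 each and Charlie4 with 48. The table gives no lengths, so a large count may mean a long or a numerous subfamily, and levels are not ranked between subfamilies.

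DNA transposon counts differed between the libraries in their sum. The members together stood at 505.0 cpm in WT (95% interval 496.2 to 513.9), 692.9 cpm in Dnmt1-/- (681.0 to 705.0), 836.1 cpm in OGA (824.8 to 847.5) and 681.6 cpm in D242A (671.4 to 692.0). WT was thus the lowest and OGA the highest, and the Dnmt1-/- and D242A libraries lay between them with overlapping intervals. Against WT the log2 ratio was 0.46 for Dnmt1-/- (0.42 to 0.49), 0.43 for D242A (0.40 to 0.47) and 0.73 for OGA (0.70 to 0.76), or 1.37-, 1.35- and 1.66-fold. Between the cassette lines, OGA was higher than D242A by 0.29 (0.27 to 0.32), or 1.23-fold. The directions for OGA depended on the scale. Relative to all repeat counts other than rRNA, which include the ERVs, the ratio of OGA to WT was −0.01 and that of OGA to D242A was −0.24, both reversed.

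The name groups shared this order nearly throughout. The 47 MER subfamilies summed to 205.5 cpm in WT, 272.8 cpm in Dnmt1-/-, 349.0 cpm in OGA and 280.7 cpm in D242A. The 22 Tigger subfamilies summed to 56.1, 77.1, 91.8 and 75.6 cpm in the same order of libraries, and the 23 Charlie subfamilies to 49.8, 70.3, 84.4 and 70.8 cpm. The other 21 subfamilies summed to 55.5, 71.4, 89.2 and 75.8 cpm. In every group WT was lowest and OGA highest. The log2 ratio of OGA to WT lay between 0.68 and 0.76 over the 5 groups, and that of OGA to D242A between 0.24 and 0.31.

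The URR pair took its largest share in the Dnmt1-/- library. URR1A and URR1B summed to 138.1 cpm in WT, 201.3 cpm in Dnmt1-/-, 221.8 cpm in OGA and 178.7 cpm in D242A. Their share of the members' counts was 29.1% in Dnmt1-/- (28.3 to 29.8%), against 27.3% in WT (26.6 to 28.1%), 26.5% in OGA (25.9 to 27.1%) and 26.2% in D242A (25.6 to 26.9%). The interval of the Dnmt1-/- library lay above the other 3. The MER share ran the other way, with 39.4% in Dnmt1-/- (38.5 to 40.2%), 40.7% in WT (39.8 to 41.6%), 41.7% in OGA (41.1 to 42.4%) and 41.2% in D242A (40.4 to 41.9%), so that its Dnmt1-/- interval lay below those of OGA and D242A. The Tigger share lay between 10.98% and 11.13%, the Charlie share between 9.87% and 10.4% and that of the other 21 subfamilies between 10.3% and 11.1%. The plot of the groups by library shows both the common order and this departure.

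**Figure D1:**
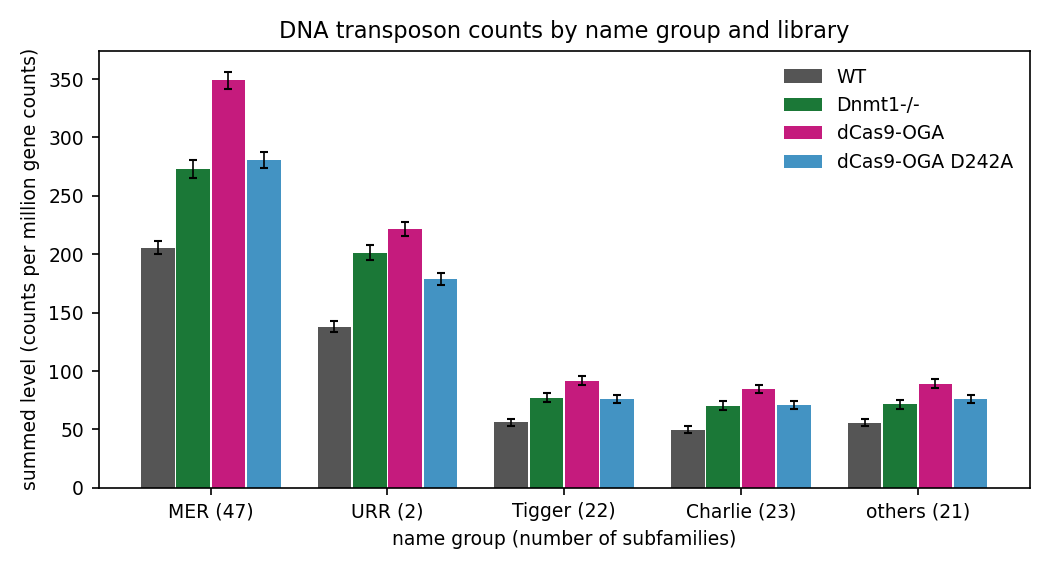
Summed level of the DNA transposon members in cpm (vertical axis, from 0) for each name group (number of subfamilies in brackets) in 4 libraries, 1 per condition. Error bars are exact Poisson 95% intervals for counting error only. WT is the lowest bar and OGA the highest in all 5 groups, and the Dnmt1-/- bar exceeds the D242A bar most in the URR group (201.3 against 178.7 cpm).

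Among single subfamilies, URR1B and URR1A carried the most counts and did not move alike. URR1B had 71.4 cpm in WT, 114 cpm in Dnmt1-/-, 113 cpm in OGA and 86.8 cpm in D242A, so that Dnmt1-/- and OGA lay together at the top. URR1A had 66.7, 86.98, 109 and 92.0 cpm in the same order. Relative to the other members, the log2 ratio of Dnmt1-/- to WT was 0.26 for URR1B (0.17 to 0.36) and −0.08 for URR1A (−0.18 to 0.02). The difference in the URR share thus came from URR1B. Leaving URR1B out of the total took its ratio of Dnmt1-/- to WT from 0.46 to 0.42.

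The next subfamilies by counts kept the order of the total with few exceptions. MER2, a Tigger-type remnant, had 30.8 cpm in WT, 47.7 cpm in Dnmt1-/-, 56.7 cpm in OGA and 47.7 cpm in D242A, and its interval lay above the ratio of the other members in all 3 comparisons with WT. MER5A, a short hAT remnant, had 25.5, 35.5, 40.2 and 31.7 cpm in that order. RCHARR1, a rodent hAT element, had 19.4, 28.1, 33.4 and 30.7 cpm. For these 3 subfamilies WT was again lowest and OGA highest.

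MER20 (20.3, 26.5, 35.5 and 28.2 cpm), MER58A (18.4, 24.1, 29.1 and 24.2 cpm) and MER58B (10.2, 15.0, 19.7 and 14.5 cpm), all hAT remnants, likewise followed the total. MER58A lay nearest to the profile of the total of all members, within 0.04 on the log2 scale in every library after centring, followed by URR1A and MER5A1 within 0.06. Charlie1a had 10.5, 16.7, 22.2 and 17.4 cpm, and was the largest member at least 2-fold higher in OGA than in WT. Tigger7 had 16.3 cpm in WT and 22.8, 24.9 and 24.1 cpm in the other libraries, with no more than 0.05 between OGA and D242A on the log2 scale.

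MER3 and MER5B showed the reverse of URR1B. MER3 had 10.6 cpm in WT, 10.3 cpm in Dnmt1-/-, 17.5 cpm in OGA and 13.4 cpm in D242A, so that Dnmt1-/- did not exceed WT. Relative to the other members its ratio of Dnmt1-/- to WT was −0.50 (−0.78 to −0.23). MER5B had 22.8, 25.7, 33.7 and 29.5 cpm, and the same relative ratio was −0.29 (−0.47 to −0.12). Even among the 12 largest subfamilies, counting error alone did not cover the differences in how they moved.

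**Figure D2:**
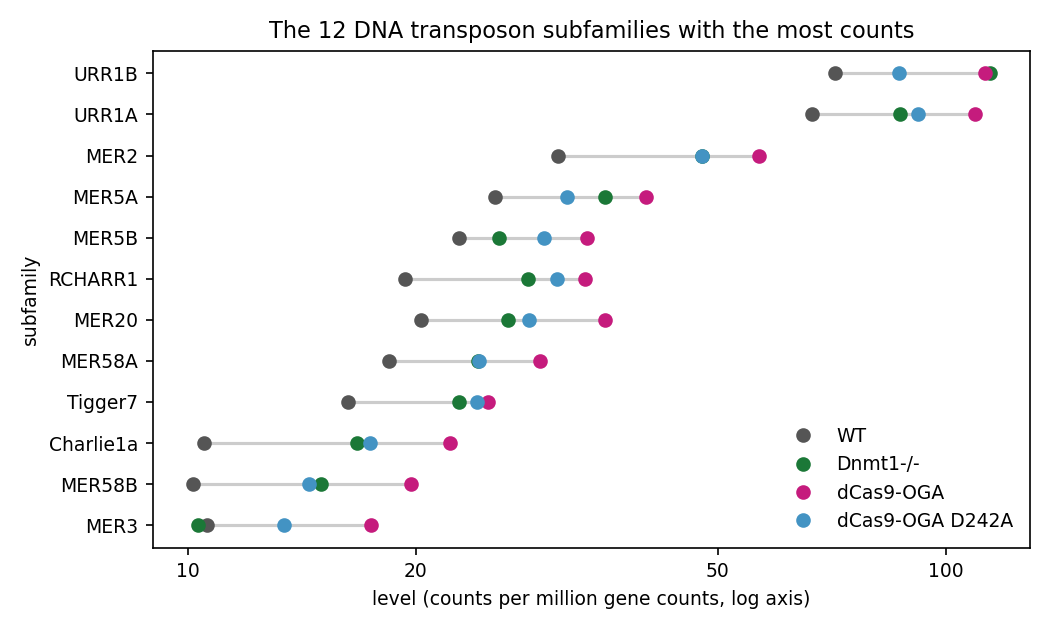
Level of the 12 DNA transposon subfamilies with the most counts in cpm (horizontal log axis), 1 point per library. WT is the lowest point in 11 of the 12 subfamilies and OGA the highest in 11. Dnmt1-/- and D242A coincide at MER2 and MER58A, Dnmt1-/- is the highest library in URR1B, and it lies at the WT level in MER3.

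Over all members the order of libraries was less regular. The highest library was OGA for 72 members, Dnmt1-/- for 22, D242A for 15 and WT for 6. The lowest was WT for 77 members, Dnmt1-/- for 23, D242A for 11 and OGA for 4. Of the 44 members with 200 counts or more, OGA was highest in 37 and WT lowest in 36. The log2 levels of the members correlated between any pair of libraries with a Pearson's r of 0.957 to 0.982 and a Spearman's rho of 0.855 to 0.925 over 115 members, which share the same copies and annotation in every library.

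On the log2(cpm + 0.5) scale the median member was higher than WT by 0.36 in Dnmt1-/-, by 0.38 in D242A and by 0.65 in OGA, and higher in OGA than in D242A by 0.26. The medians of all 757 transposon subfamilies with the same minimum were 0.33, 0.34, 0.60 and 0.28. In the comparison of Dnmt1-/- with WT, 87 of 115 members lay above 0, against 77.9% of all subfamilies. The corresponding counts were 93 members for D242A against WT (77.3% of all subfamilies), 107 for OGA against WT (88.8%) and 93 for OGA against D242A (82.8%). The upward shift was therefore found in the other transposon classes as well.

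Few members reached a 2-fold difference. In Dnmt1-/- against WT, 5 members were at least 2-fold higher, where 4.1% of all subfamilies were, and none was 2-fold lower, where 0.925% were. In D242A against WT, 4 members were higher (3.96% of all subfamilies) and none lower (2.11%). In OGA against WT, 12 members were higher (13.9%) and none lower (0.925%). Between OGA and D242A, 0 members were higher (3.7%) and 0 lower (0.264%). These counts depended on the pseudocount, since with 0.1 cpm in place of 0.5 cpm the higher members numbered 21, 18, 33 and 3, and with 5 cpm there were none. They also depended on the scale. Relative to the DNA transposon total, 0, 1, 2 and 0 members were higher and 4, 2, 5 and 1 lower.

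The members with the largest ratios had few counts. MER5C was counted 2 times in WT, 20 times in Dnmt1-/-, 39 times in OGA and 23 times in D242A, and without a pseudocount its log2 ratio of OGA to WT was 4.29 with an interval from 2.34 to 7.39. Tigger17 was counted 7, 20, 54 and 41 times in the same order, with a ratio of OGA to WT of 2.96 (1.82 to 4.34). Both were 2-fold higher than WT in all 3 other libraries, and so was MER44A, a Tigger-type element with 24, 46, 61 and 63 counts. All 3 were lowest in WT, and MER5C and Tigger17 were highest in OGA.

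The 4 subfamilies of the MER44 group differed widely in counts. MER44B was counted 97 times in WT, 111 times in Dnmt1-/-, 222 times in OGA and 157 times in D242A. MER44D was counted 27, 49, 70 and 62 times, and MER44C 12, 22, 36 and 26 times. In all 4 WT had the lowest cpm, as it did in 77 of the 115 members, while OGA was highest in 3 and D242A in MER44A. The log2 ratio of Dnmt1-/- to WT ran from 0.56 in MER44B to 1.02 in MER44A. MER44A, MER44B and MER44D were among the 12 members 2-fold higher in OGA than in WT, where 13.9% of all subfamilies were. They were picked by that call, so their number says nothing about the group. MER44C, which was not among these 3, is given after its values were seen. These subfamilies share sequence, so that a read may be assigned to any of them. The remaining members 2-fold higher in OGA than in WT were Charlie1a, Charlie4z, Cheshire, Tigger2b, Tigger6a, Tigger10 and Ricksha_c, and Charlie4z had the third largest ratio at 1.17.

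Other members passed 2-fold in 1 of the 3 comparisons with WT on the scale of cpm + 0.5, which understates the change of members with so few counts. Tigger20a was counted 5, 19, 22 and 11 times and Tigger16a 10, 25, 21 and 9 times in WT, Dnmt1-/-, OGA and D242A, and both passed 2-fold in Dnmt1-/- against WT, at 1.12 and 1.03. Without the pseudocount both also passed it in OGA against WT, at 2.15 and 1.08, and Tigger20a in D242A against WT, at 1.15. Tigger16a, Tigger20a, MER5C, MER45R and Looper each reached the minimum of 50 counts only with the counts of a library in which they were high. This held for Dnmt1-/- and for OGA in the Tigger pair, for OGA in MER5C and Looper, and for D242A in MER45R. The minimum therefore favoured such differences. MER45R, a hAT element, had 44 counts in D242A against 13, 10 and 21 in WT, Dnmt1-/- and OGA. On the scale of cpm + 0.5 it had a log2 ratio of 1.16 in D242A against WT and the lowest ratio of all members, −0.76, in OGA against D242A. MER91A and Charlie23a followed it at −0.68 and −0.28.

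Below WT, the lowest ratios of Dnmt1-/- were those of MamTip2 (−0.79), MER45A (−0.70) and Tigger6b (−0.65). MamTip2, a hAT element, was counted 74 times in WT, 28 times in Dnmt1-/-, 85 times in OGA and 75 times in D242A, so that only the Dnmt1-/- library was low. In D242A the lowest ratios to WT were those of MER81 (−0.69), Tigger17c (−0.61) and MER45A (−0.51). In OGA they were those of Arthur1B (−0.54), MER91A and Arthur1 (both −0.37), and Arthur1B was counted 45, 23, 27 and 28 times, with WT above the other libraries.

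Between the cassette lines the highest ratios were those of MER63B (0.93), Looper and MER63C (both 0.79). MER63B was counted 31, 25, 63 and 27 times in WT, Dnmt1-/-, OGA and D242A, MER63C 32, 18, 56 and 27 times, and Looper, a piggyBac element, 18, 11, 44 and 20 times. In all 3, OGA stood above the other libraries. No member reached the 3.90-fold ratio that IAPEz-int had on the same gene counts.

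Most members could not be told apart from the rest of the class at this depth. The exact interval of a member, relative to the sum of the other members, held 0 for 88 of 115 members in Dnmt1-/- against WT, 93 in D242A against WT, 93 in OGA against WT and 102 in OGA against D242A. The median width of these intervals was between 1.31 and 1.63 on the log2 scale, so small departures were not detectable for most members. The plot of the ratios against counts shows the spread narrowing from the rare to the abundant subfamilies around the ratio of the total.

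**Figure D3:**
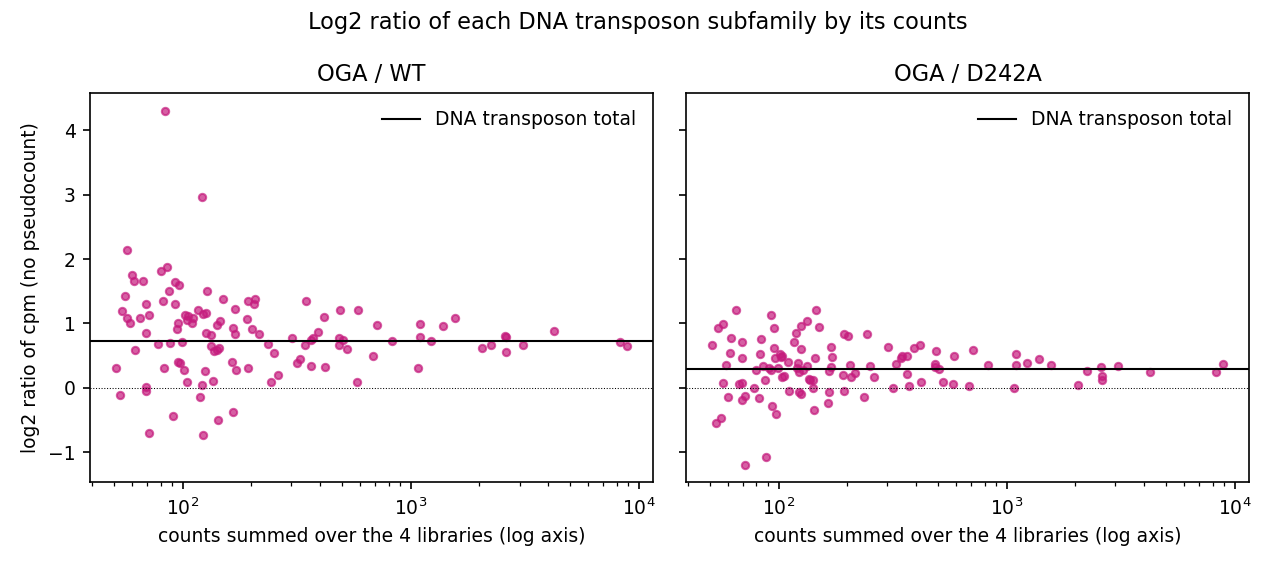
Log2 ratio of cpm without a pseudocount (vertical axis) of each of the 115 DNA transposon members against its counts summed over 4 libraries (horizontal log axis), for OGA against WT (left) and OGA against D242A (right). The solid line is the ratio of the summed members (0.73 and 0.29), and the dotted line marks 0. The highest points at left are MER5C (4.29) and Tigger17 (2.96), and the members with the most counts lie close to the line.

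After the variance expected from counting was subtracted, the SD of the members' log2 ratios was 0.28 in Dnmt1-/- against WT, 0.24 in D242A against WT, 0.23 in OGA against WT and 0.13 in OGA against D242A. For the 458 LTR subfamilies within the same range of counts it was 0.53, 0.60, 0.61 and 0.43. The 130 LINE subfamilies had 0.21, 0.29, 0.36 and 0.17, and the 38 SINE subfamilies 0.16, 0.10, 0.48 and 0.45. DNA transposons were thus less spread than LTR elements in all 4 comparisons, but LINE or SINE subfamilies were less spread in 2 of them. Across the 115 members, the ratios of Dnmt1-/- to WT and of OGA to D242A, which share no library, had a Pearson's r of −0.02 and a Spearman's rho of −0.03.

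Of the LINE, SINE and LTR classes, LINEs had the summed ratios nearest to those of DNA transposons. The log2 ratios of all LINE counts were 0.44 in Dnmt1-/-, 0.56 in D242A and 0.88 in OGA against WT, and 0.31 in OGA against D242A. There were 12.5 DNA transposon counts per 100 LINE counts in WT, 12.6 in Dnmt1-/-, 11.3 in OGA and 11.4 in D242A. Most LINE counts were L1, which still includes active families in the mouse. L2, an old and immobile LINE family, had 0.33, 0.41, 0.74 and 0.32 for the same comparisons.

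SINE counts moved less, with log2 ratios of 0.31, 0.22 and 0.31 against WT and 0.09 between the cassette lines. The old and inactive LINE and SINE families (among them L2, L3, CR1 and MIR, a set chosen after the data were seen) had 0.21, 0.30, 0.60 and 0.30, and so shared the order of the libraries other than that of Dnmt1-/- and D242A. LTR counts followed another pattern, at −0.05 and −0.08 for Dnmt1-/- and D242A against WT, 1.03 for OGA against WT and 1.11 for OGA against D242A. The number of DNA transposon counts per 100 LTR counts was accordingly 4.71 in WT, 6.71 in Dnmt1-/-, 3.81 in OGA and 6.71 in D242A.

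Other repeats and genes followed the order of the DNA transposon total to different extents. Counts on low complexity sequence had the same order, with 1273 cpm in WT, 1341 cpm in Dnmt1-/-, 1460 cpm in OGA and 1335 cpm in D242A. Simple repeats, at 1199, 1444, 1728 and 1468 cpm, also had WT lowest and OGA highest. Counts on tRNA repeats were 281 cpm in WT, 903 cpm in Dnmt1-/-, 528 cpm in OGA and 599 cpm in D242A, and counts on satellites 162, 733, 432 and 436 cpm. WT was the lowest library in both, as in DNA transposons, but OGA was not the highest. The 68 cluster histone genes, whose messages lack a poly(A) tail, summed to 64.6, 74.5, 40.7 and 94.2 cpm, and the 164 small nuclear and nucleolar RNA genes to 21.9, 26.6, 15.7 and 28.8 cpm, with OGA the lowest in both. Their part in the DNA transposon values was not tested.

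**Figure D4:**
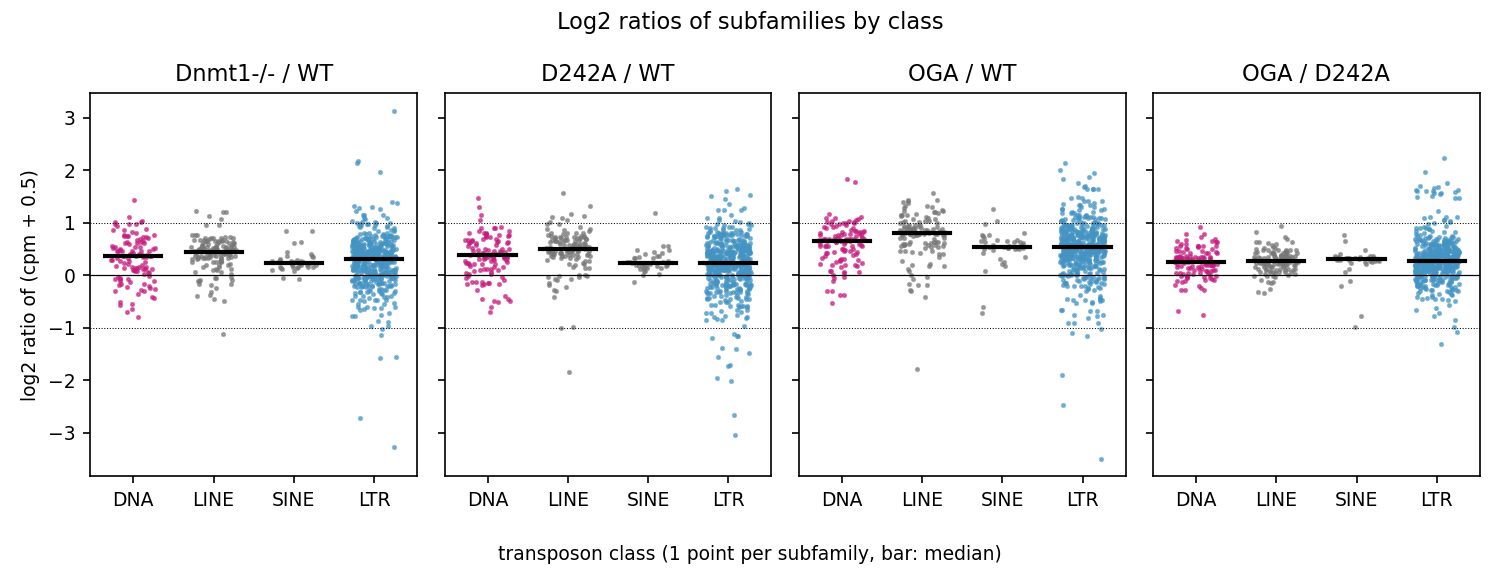
Log2 ratio of (cpm + 0.5) for each transposon subfamily with at least 50 counts, by class (115 DNA, 130 LINE, 38 SINE and 473 LTR), in 4 comparisons of single libraries. Bars are medians and dotted lines mark 2-fold. The DNA medians lie at 0.36, 0.38, 0.65 and 0.26, near those of the other classes, no DNA point lies below the lower line, and LTR points extend to below −3 and above 3.

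Dividing by DNA transposon counts took the difference of the background off every ERV ratio. The study adjusted a length-scaled level of IAPEz (FPKM) by that of all DNA transposons. Here counts were divided by the summed counts of the 115 members, without lengths, so the values are not the study's own. IAPEz-int, the internal part of IAPEz, was counted 10534 times in WT, 12152 times in Dnmt1-/-, 46127 times in OGA and 11769 times in D242A. Per DNA transposon count this was 0.831 in WT, 0.938 in Dnmt1-/-, 2.21 in OGA and 0.695 in D242A. The OGA library was highest on either scale, but D242A lay above WT on gene counts (log2 ratio 0.18) and below it on DNA transposon counts (−0.26, interval −0.30 to −0.22).

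The ratio of OGA to D242A was 1.96 on gene counts and 1.67 on DNA transposon counts (1.64 to 1.70), or 3.90- and 3.18-fold. Against WT the OGA ratio was 2.14 on gene counts and 1.41 on DNA transposon counts (1.38 to 1.44), or 4.40- and 2.66-fold. The Dnmt1-/- ratio was 0.63 on gene counts and 0.17 on DNA transposon counts (0.14 to 0.21), or 1.55- and 1.13-fold. These intervals treat the DNA transposon total as fixed. With the counting error of that total added, the SE of each log2 ratio was between 0.021 and 0.026. The Dnmt1-/- count of IAPEz-int equals the count of ETnERV-int in the same library, the only count shared by any of its 26 repeats with at least 5000 counts, so the Dnmt1-/- value of either element is in doubt.

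Leaving out each DNA transposon subfamily in turn from the background kept the IAPEz-int ratio of OGA to D242A between 1.66 and 1.68, that of OGA to WT between 1.40 and 1.42, that of D242A to WT between −0.28 and −0.24 and that of Dnmt1-/- to WT between 0.16 and 0.22. With a single name group as the background the ranges were 1.65 to 1.73, 1.37 to 1.46, −0.33 to −0.20 and 0.09 to 0.27. The lowest Dnmt1-/- value came from the URR pair and the highest from the other 21 subfamilies. With SINE counts as the background the values were 1.87, 1.83, −0.05 and 0.32, all outside the ranges of the name groups. With LINE counts they were 1.65, 1.26, −0.39 and 0.19, of which the first and the last lay within those ranges.

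**Figure D5:**
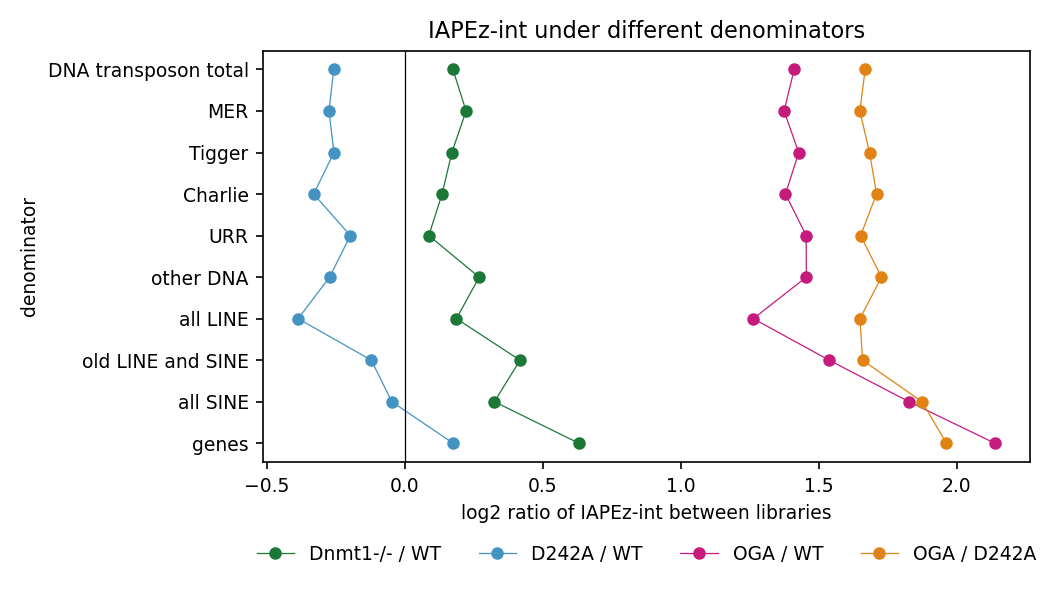
Log2 ratio of IAPEz-int between libraries (horizontal axis) for each choice of what its counts are divided by (vertical axis), in 4 comparisons. Lines join the points of 1 comparison only as a guide. The 5 DNA name groups lie close together, with their widest range from 0.09 to 0.27 in Dnmt1-/- against WT, while gene counts give the highest value in all 4 and turn D242A against WT from −0.26 to 0.18.

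The other ERVs shifted by the same amounts, so that the change mattered most for elements with small ratios. MMETn-int and ETnERV-int, ERVs of the ETn group, had ratios of OGA to D242A of 1.62 and 1.55 on gene counts and 1.33 and 1.25 on DNA transposon counts. In Dnmt1-/- against WT, MMETn-int stood at −0.29 on gene counts and −0.74 on DNA transposon counts. IAPLTR1_Mm, the long terminal repeat of IAP, had ratios of OGA to D242A of 1.70 and 1.40. The direction of the difference between the cassette lines held on both scales for each of these 3.

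RLTR1B-int had the largest ratio between the cassette lines among the elements followed, 2.24 on gene counts and 1.95 on DNA transposon counts. It stood at 310 cpm in WT, 441 cpm in Dnmt1-/-, 556 cpm in OGA and 118 cpm in D242A, so that D242A was low, with a ratio to WT of −1.40 on gene counts and −1.83 on DNA transposon counts. In OGA against WT it was 1.79-fold and 1.08-fold on these scales. RLTR4_MM-int had 1.68 and 1.38 between the cassette lines. RLTR19-int had 0.19 on gene counts and −0.10 on DNA transposon counts, so that its direction turned. IAPEY4_I-int had 0.60 and 0.30 between the cassette lines, but in OGA against WT it went from 0.66 to −0.07.

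For MMVL30-int, an ERV, and B1_Mus1, a SINE, the estimates lay above 0 on gene counts and below 0 on DNA transposon counts in all 4 comparisons, but not all of these values were beyond counting error. MMVL30-int had log2 ratios of 0.37, 0.09, 0.35 and 0.27 on gene counts for Dnmt1-/-, D242A and OGA against WT and for OGA against D242A. On DNA transposon counts these were −0.09 (−0.30 to 0.13), −0.35 (−0.56 to −0.14), −0.38 (−0.58 to −0.17) and −0.03 (−0.23 to 0.17). The B1_Mus1 interval between the cassette lines also included 0 on that scale (−0.06 to 0.01). RLTR10-int lay below 0 in all 3 comparisons with WT on DNA transposon counts, at −0.93, −0.76 and −0.75. On gene counts it was −0.47 in Dnmt1-/-, −0.32 in D242A and −0.02 in OGA, the last from 762 counts against 778 in WT and within counting error, and between the cassette lines its ratio went from 0.30 to 0.01. MERVL-int, which was high in WT, lay far outside these shifts, with ratios to WT between −3.50 and −3.05 on gene counts and between −4.22 and −3.48 on DNA transposon counts.

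L1Md_T and L1Md_A, families of active L1 elements, lay above WT in OGA by 1.31 and 1.30 on gene counts and by 0.59 and 0.57 on DNA transposon counts. L1Md_A in Dnmt1-/- against WT turned from 0.25 to −0.21. B2_Mm1a, a SINE, was lower in OGA than in D242A on both scales, at −0.98 and −1.27.

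The change of scale moves every ratio of a comparison by the same constant, the ratio of the DNA transposon total, and over the 473 LTR subfamilies with at least 50 counts this shifted the balance of higher and lower calls by construction. On gene counts 60 were at least 2-fold higher and 6 lower in OGA than in WT, and on DNA transposon counts 6 were higher and 31 lower. In Dnmt1-/- against WT the numbers went from 21 higher and 6 lower to 4 higher and 23 lower, and in D242A against WT from 17 and 14 to 5 and 37. Between OGA and D242A they went from 28 and 2 to 19 and 6, under the smallest of the 4 shifts. The median LTR subfamily then lay at −0.01 between the cassette lines and between −0.19 and −0.14 in the comparisons with WT, against 0.24 to 0.54 on gene counts.

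The replicate libraries, 3 of WT and 3 of Dnmt1-/- cells, hold genes only, with no counts on repeats. What they offer here is host genes that derive from transposases or share their DNA-binding domains. Of 26 such genes listed, 22 were tested and 4 (Tigd4, Cenpb, Zbed6 and Rag1) were not analysed here. By limma with Benjamini-Hochberg adjustment over 17297 genes, 10 rose and 7 fell in Dnmt1-/-, where 35.8% of all tested genes rose and 35.4% fell (71.2% in all). The list's median log2 fold change was 0.09 against 0.01 for all genes, so the list lay close to the background. The labels do not say whether replicates came from separate cultures, and the p-values then measure only the spread between these samples.

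Pogk, of the pogo and Tigger type, had the largest change, with a signal (reads scaled to library size) of 8.06, 7.92 and 8.44 in WT and 3.03, 3.12 and 4.13 in Dnmt1-/-. The groups did not overlap, and the log2 fold change was −1.15 (SE 0.11, limma adjusted p = 2.6e-09). Jrkl, of the same type, fell from 6.77 ± 0.47 to 3.95 ± 0.50 (SD, n = 3), by 0.71 on the log2 scale (SE 0.11, limma adjusted p = 3.5e-06). Tigd2 also fell and Jrk and Tigd3 rose, Tigd3 without passing under DESeq2 (adjusted p = 0.064) or without WT replicate 1 (limma adjusted p = 0.063). Pogz was called with overlapping groups (limma adjusted p = 0.047) and lost the call under edgeR (adjusted p = 0.077), DESeq2 (adjusted p = 0.10), no filter on low values, and without WT replicate 1 or Dnmt1-/- replicate 2 or 3, while Tigd5 did not pass the test (limma adjusted p = 0.43).

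Of the hAT type, Zbed3 fell from 37.0 ± 2.9 to 21.1 ± 0.23 (SD, n = 3), by 0.79 (SE 0.07, limma adjusted p = 1.0e-10), and Zbed4 rose from 29.9 ± 0.85 to 47.9 ± 1.2, by 0.67 (SE 0.06, limma adjusted p = 1.7e-10). These genes of 1 type moved in opposite directions, each by more than the spread between replicates. Gtf2ird2, which carries a hAT domain, fell by 0.34 on the log2 scale, and Zbed5 did not pass the test (limma adjusted p = 0.29).

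Of the genes with the THAP zinc finger, which they share with the P element transposase, Thap11 rose from 33.2 ± 1.0 to 54.4 ± 1.7 (SD, n = 3), by 0.70 (SE 0.06, limma adjusted p = 5.3e-11). Thap1, Thap7 and Thap12 also rose, and Thap2 fell. Thap3 fell by 0.28 (limma adjusted p = 0.020), a call lost without the filter on low values (limma adjusted p = 0.050) and without WT replicate 2 or Dnmt1-/- replicate 2 or 3 (limma adjusted p from 0.055 to 0.089), and Thap4 did not pass the test (limma adjusted p = 0.32). Harbi1, derived from a Harbinger transposase, rose by 0.33, and Pgbd5, of the piggyBac type, rose by 0.35, while Naif1 and Pgbd1 did not pass the test (limma adjusted p = 0.40 and 0.54).

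Markers of other cells moved with the same comparison. The 3 fibroblast markers (Col1a1, Col1a2 and Thy1) summed to a signal of 813 to 1190 in the WT replicates and 202 to 222 in the Dnmt1-/- replicates, with none at 0, and 3 of 3 were lower in Dnmt1-/-. The 3 primitive endoderm markers (Gata4, Gata6 and Sox17) summed to 69.8 to 74.2 and 85.4 to 94.7, and 2 of 3 rose. Their part in the gene changes was not tested. In the single libraries that give the DNA transposon counts, the same fibroblast markers summed to only 41.5 cpm in WT, 27.1 cpm in Dnmt1-/-, 35.3 cpm in OGA and 56.7 cpm in D242A. The primitive endoderm sum went the other way there than in the replicates, with 27.0 cpm in WT and 8.29 cpm in Dnmt1-/-.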

How the data were processed

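Poly(A) RNA-seq of 4 single ES cell libraries (WT, Dnmt1-/-, OGA, D242A) and of 3 replicate libraries each of WT and Dnmt1-/- was used. ChIP-seq samples were not analysed here. For the single libraries the authors deposited raw counts, on 49671 genes and on each RepeatMasker subfamily. For the replicates they deposited a signal, reads divided by a scaled library size. Per the submitters' processing notes reads were placed on mm10 with Bowtie2 2.2.2 and with TopHat2 2.0.11 (OGA and D242A samples) or HISAT2 2.1.0 (replicates of WT and Dnmt1-/-) and counted with featureCounts 1.5.0. Which aligner made the WT and Dnmt1-/- columns of the count tables is not given in the sources used here. The study's methods give HISAT2 for transcripts and Bowtie2 for IAPEz expression, with rRNA and mRNA reads removed before repeats were counted, but a row of rRNA counts remains and was left out of totals. The labels name an unstranded library kit and the methods a stranded one, so strand was not used. Reads that match several subfamilies can be assigned to any of them. The study's FPKM values were not used here, and no length was available to compare levels per length. The replicate files' headers do not match their columns, and the value column was taken by position.

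Repeat counts were divided by the library's total gene counts. A 2-fold difference on log2(cpm + 0.5) was the call, without a test. DNA-class subfamilies were grouped by name. The precision of each value is that of its counts, from 2 (MER5C in WT) to 2810 (URR1B in OGA) for single members and from 12674 to 20865 for their sum.

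The replicate signal was compared on log2(signal + 0.5) by limma 3.58.1 with a trend, at a threshold of 0.05 after Benjamini-Hochberg adjustment, and after a filter on low values that left 17297 of 26797 genes. The signal of 100% of values gave whole reads within 0.001 read, from 26846275 to 37112247 reads per library, on which edgeR 4.0.16 and DESeq2 1.42.0 were run as alternatives. Tested on simulated data for this comparison, with 200 of 17297 genes changed 2-fold, limma found 182 of those changed and made 13 false calls, edgeR found 183 and made 15, and DESeq2 found 170 and made 12. Same-numbered replicates did not deviate together (r of 0.07, −0.02 and 0.07), so the main design has no block.

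The members, the gene lists and the alternatives were chosen with earlier results of these data known. Named members are the 12 with the most counts, the 3 highest and 3 lowest ratios of each comparison, those at least 2-fold different, those next to the minimum and the 3 nearest to the profile of the total. The MER44C count is given beside its group and was chosen after its values were seen. ERV and other elements named were a fixed list of 15. Genes given in full are the 5 with the largest change past the threshold. The tools were Python 3.11.15 with SciPy 1.17.1, NumPy 2.4.6, pandas 2.3.3 and matplotlib 3.10.9, and R 4.3.3.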

Additional observations from a re-analysis of the deposited data

How the results depend on the processing

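The scale and the pseudocount moved several values. On all repeat counts without rRNA, the log2 ratio of the DNA transposon total was 0.21 in Dnmt1-/-, 0.23 in D242A and −0.011 in OGA against WT, and −0.24 in OGA against D242A, the last 2 reversed; without URR1B the first was 0.42. The other 11 of 16 values of the total stayed within its counting interval. Of 16 alternative medians 15 stayed within the 95% interval of the median over members, and with a pseudocount of 0.1 cpm that of OGA against WT was 0.77. Members at least 2-fold higher than WT numbered 21 with a pseudocount of 0.1 cpm, 0 with 5 cpm, 0 among those with 200 counts or more and 0 relative to the DNA total in Dnmt1-/-, then 18, 0, 0 and 1 in D242A, and 33, 0, 6 and 2 in OGA. Between OGA and D242A 3 were higher with 0.1 cpm. Lower members numbered 1 with 0.1 cpm in Dnmt1-/- against WT and 1 between the cassette lines, and relative to the DNA total 4, 2, 5 and 1 in the 4 comparisons. IAPEz-int in Dnmt1-/- against WT was 0.087 over URR, 0.27 over the other subfamilies, 0.63 over genes, 0.32 over SINEs and 0.42 over old LINEs and SINEs (chosen after the data were seen). In D242A against WT it was −0.33 over Charlie, −0.20 over URR, −0.047 over SINEs, −0.39 over LINEs, −0.12 over old LINEs and SINEs, and reversed to 0.18 over genes. In OGA against WT it was 1.35 by the median of subfamily ratios, 2.14 over genes, 1.83 over SINEs, 1.26 over LINEs and 1.54 over old LINEs and SINEs. Between the cassette lines it was 1.73 over the other subfamilies, 1.96 over genes and 1.87 over SINEs. The other 29 of 48 values stayed within a 95% interval that adds the counting error of the DNA transposon total, and some of them lay outside the narrower intervals of the report, which treat that total as fixed. The cause of these shifts was not tested. No member carries a question mark in its class, so leaving such subfamilies out could not be run.

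Of the 22 genes tested, edgeR called 9 higher and 7 lower, DESeq2 8 and 7, and no filter 9 and 6. Leaving out 1 replicate gave 8 to 10 higher and 6 to 7 lower. The calls lost were those of Pogz, Tigd3 and Thap3, and those of the other 14 genes past the threshold held throughout. With the replicate block the counts were 10 and 7, and it changed no call of the 5 genes given in full. No paired test of repeats was possible because their table has 1 library per condition.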
